A study of Mus musculus with 4 samples.

Results

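The genes described here are type I interferon response genes, taken by symbol from a list of 40 names in which guanylate-binding proteins, p47 GTPases and Ifi200 genes were left out. Of the 40, 38 were in the deposited table of 17485 genes, and Mx1 and Mx2 were not analysed here. The samples were whole hearts of 8-week-old male mice with free access to food and water, per the labels: 2 libraries of total RNA from wild-type (WT) mice and 2 from Klf9 knockout (Klf9 KO) mice. Klf9 is a DNA-binding protein of the Krüppel-like factors, and the study set out to relate it to the function of heart mitochondria. The strain, the deleted part of Klf9, the cells that lack it, and whether each library came from its own animal were not stated in the labels. The p-values therefore reflect how far these 4 libraries scatter, and that scatter may be technical.

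Type I interferons are secreted when sensors in the cytoplasm or in endosomes meet viral or misplaced RNA or DNA. They bind a receptor of 2 chains, Ifnar1 and Ifnar2, whose kinases Jak1 and Tyk2 phosphorylate factors such as Stat2. Together with Irf9 these form a complex that binds a DNA motif, the interferon-stimulated response element, and switches on genes that sense foreign RNA, block viral entry, translation or release, or restrain the response itself. Tissues such as the heart keep a low level of this program without infection, in muscle cells as well as in macrophages and endothelium.

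The motif is shown first because it is the element this pathway is known for. The genes were chosen by name and not by the motif. But interferon response genes are known to share it, so a share above that of all genes was foreseeable. RefSeq promoters (GRCm38.p6, 250 bases before to 50 after the annotated start) were matched for 29 of the 38 genes. The core of the element (GAAA, any 2 bases, then GAAA, on either strand) was in the promoters of 14 of the 29 genes, or 48.3%, against 3.99% of the 27025 genes with such a promoter. Some genes have several annotated starts. Counted by promoter, 15 of 35 (42.9%) held it against 3.44% of 32851. Below, one match of each of 6 genes that fell in the knockout is printed with 10 bases on each side, read along the strand on which the core starts with GAAA, with the match in capitals.
Ifit1: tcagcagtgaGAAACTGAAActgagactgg
Ifit3: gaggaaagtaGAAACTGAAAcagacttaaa
Isg15: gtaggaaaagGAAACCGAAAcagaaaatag
Oas1a: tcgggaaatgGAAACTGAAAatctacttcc
Rsad2: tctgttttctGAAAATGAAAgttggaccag
Ifitm3: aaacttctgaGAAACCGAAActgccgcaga
The same core stood in the promoters of genes that did not pass the test, of which 4 are printed for comparison.
Bst2: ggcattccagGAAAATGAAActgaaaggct
Ifitm2: ccaccaacagGAAAAGGAAAttgctagaga
Ddx58: ctggccatagGAAATCGAAActgcctcagg
Stat2: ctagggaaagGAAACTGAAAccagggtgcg

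The Ifit1 window is chr19:34640794-34640823, minus strand, 85 bases before the start, and that of Isg15 is chr4:156200871-156200900, minus strand, 72 bases before it. The Bst2 window is chr8:71537583-71537612, minus strand, 130 bases before its start, and the Stat2 window is chr10:128270266-128270295, minus strand, 222 bases before its start. The Ddx58 match lay just after the annotated start, as did both matches of Ifitm3. In all, 22 matches were found, 16 of them before the start and 15 of these within 200 bases of it. Among these promoters, 7 genes had more than 1 match, Trim30a in separate promoters, and in Isg15, Oas1a and Bst2 the matches overlapped in a row. The 250 bases before the start of Ifit1 (chr19:34640639-34640888, plus strand) and of Bst2 (chr8:71537473-71537722, minus strand) are given whole, because each holds a pair of matches, in capitals, and the genes differ in their change.
Ifit1: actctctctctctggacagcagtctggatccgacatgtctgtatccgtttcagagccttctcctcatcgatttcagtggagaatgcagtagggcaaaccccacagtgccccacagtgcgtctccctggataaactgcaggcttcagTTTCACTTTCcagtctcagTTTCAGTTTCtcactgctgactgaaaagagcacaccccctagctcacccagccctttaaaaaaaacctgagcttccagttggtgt
Bst2: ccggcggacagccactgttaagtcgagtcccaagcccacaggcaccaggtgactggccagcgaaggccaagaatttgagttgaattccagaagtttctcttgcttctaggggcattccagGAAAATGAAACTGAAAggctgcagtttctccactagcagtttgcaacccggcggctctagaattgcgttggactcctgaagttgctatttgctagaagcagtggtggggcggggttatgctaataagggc
In Ifit1 the core lies on the opposite strand, so the printed strand shows its complement. Ifit1 fell and Bst2 did not pass, as given with their values further on.

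**Figure D1:**
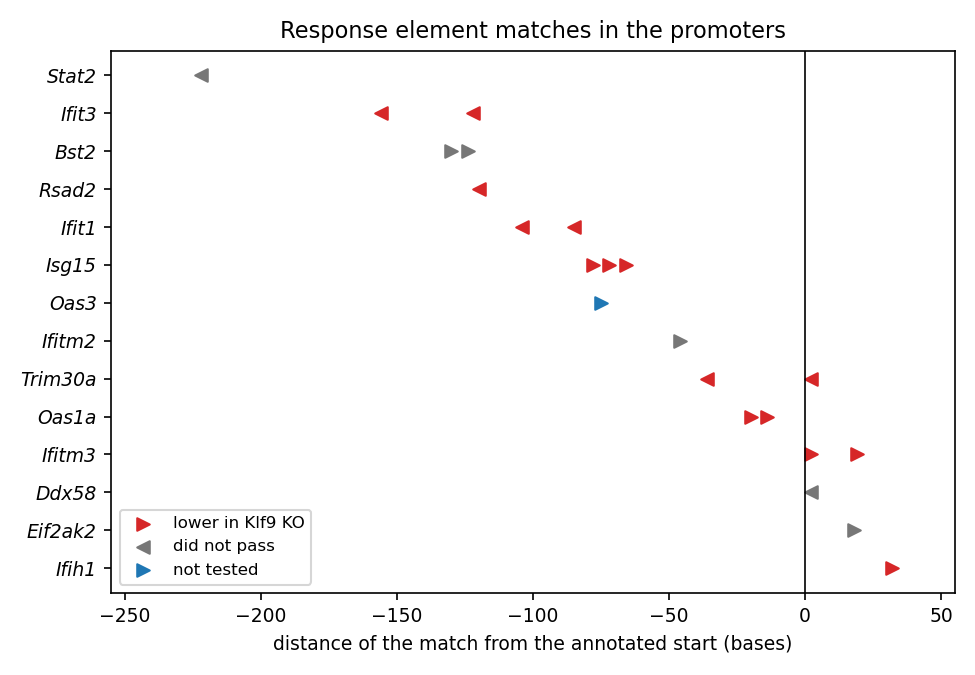
Position of each match to the core of the response element, in bases from the annotated start (vertical line), for the 14 genes with a match. Colour gives the result of the knockout comparison, and the direction of the triangle the strand. Of the 22 matches, 16 lie before the start, and genes that fell and genes that did not pass both carry them.

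The core stood in genes of either result. Counted by gene, it was in the promoters of 8 of 14 genes that fell and of 5 of 14 genes that did not pass. It was also in that of Oas3, which was not tested. A gamma-activated site, TTCNNNGAA, a motif of the interferon gamma response that reads the same on both strands, was in 4 of 14 and 5 of 14, against 9.55% of all genes with a promoter. The GC box GGGCGG, a motif that Sp and Krüppel-like factors can bind, was searched on either strand and found in 3 of 14 genes that fell and 9 of 14 that did not pass, against 38.2% of all. The motifs were counted separately, overlaps included, and a match is not evidence of binding.

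Before the interferon genes are described, some values bear on the labels. Klf9 stood at 74.9 and 58.8 in the WT libraries (replicates 1 and 2) and at 2.66 and 1.99 in the Klf9 KO libraries, the direction that the labels give. These are expression values recovered from the deposited ratios, in a unit that was not given. Levels are therefore compared only within a gene, or within a sum over the same genes. The libraries also differed in other ways than Klf9. The Y-linked genes Kdm5d and Ddx3y were at 4.01 and 7.82 in Klf9 KO replicate 1 and at 0.01, the smallest step of the values, in replicate 2, although both carry a male label. Genes of the fetal and newborn heart and of dividing cells were higher in the knockout in 8 of 8 cases, beside 27.7% of all tested genes. Tnni1, a troponin of the fetal heart, was at 0.16 and 0.01 in WT against 656 and 994 in Klf9 KO. Igf2, a fetal growth factor, was at 8.87 and 4.65 against 311 and 399. Esr1, the estrogen receptor, was at 3326 and 2726 in WT and at 0.09 and 0.03 in Klf9 KO. The effect of Klf9 cannot be told apart from these differences. Cardiomyocyte markers were present, with Myl2 at 9221 to 14274 and Myh6 at 4788 to 8725 over the 4 libraries. Both were higher in the knockout libraries but did not pass. Of the 7 markers tested 1 fell, Tnni3 (3783 and 5102 against 2625 and 2672), and 0 rose, beside 17.0% and 27.7% of all tested genes. In the fit without a filter 0 fell. The median log2 fold change of the 7 was -0.47, and in 4 of them both Klf9 KO libraries lay below both WT libraries.

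More of the interferon response genes fell in Klf9 KO hearts than did not pass, and none rose. In Oas2, Oas1a, Ifit1, Ifit3 and Ifi44, which are effectors or induced genes, in the sensor Zbp1 and in the regulator Irf7 the WT mean was more than 4 times the Klf9 KO mean. Stat2 and Irf9 of the signalling complex and 13 others did not pass. In a fit without any filter on low values, 22 of the 38 genes fell and 0 rose by limma on log2(value + 1), at a Benjamini-Hochberg adjusted p-value under 0.05, where 10.3% of all 17485 genes were called lower. The fit used for all values given here left out genes that did not reach 1 in 2 or more libraries. It called lower the same number, 22 of 37 tested, against 17.0% of 12135 genes, and called higher 0 of them, against 27.7%. At an unadjusted limma p-value under 0.05 the number higher was also 0. Of the 37, 10 passed that filter only through WT values and so had to differ. Among these 10 were Oas2, Oas1a, Ifit1, Ifit3, Ifi44 and Zbp1, named above for their large differences. Of the 27 above it in both groups, 12 fell. The median log2 fold change of the 37 was -0.79, beside 0.12 for all tested genes.

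Both Klf9 KO libraries lay below both WT libraries in 32 of the 38 genes (26.0% of all genes in the table), above both in 3 (40.3% of all genes) and overlapped with them in 3. The 3 above were Eif2ak2, Ifitm2 and Trim25, and the 3 that overlapped were Bst2, Samhd1 and Parp12. In the authors' deposited table, 32 genes had a negative group log2 ratio with a DEGseq q-value below 0.05, where 28.7% of the genes with a q-value did, and 3 a positive one, where 41.3% did. Without Klf9 KO replicate 2, the library low in Y-linked transcripts, 20 of 37 genes fell (54.1%) against 9.06% of all tested genes, and without Klf9 KO replicate 1 it was 21 (56.8%) against 10.3%. With 1 knockout library left, the spread within groups comes from the WT pair alone, and the lone library is assumed to vary like it.

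**Figure D2:**
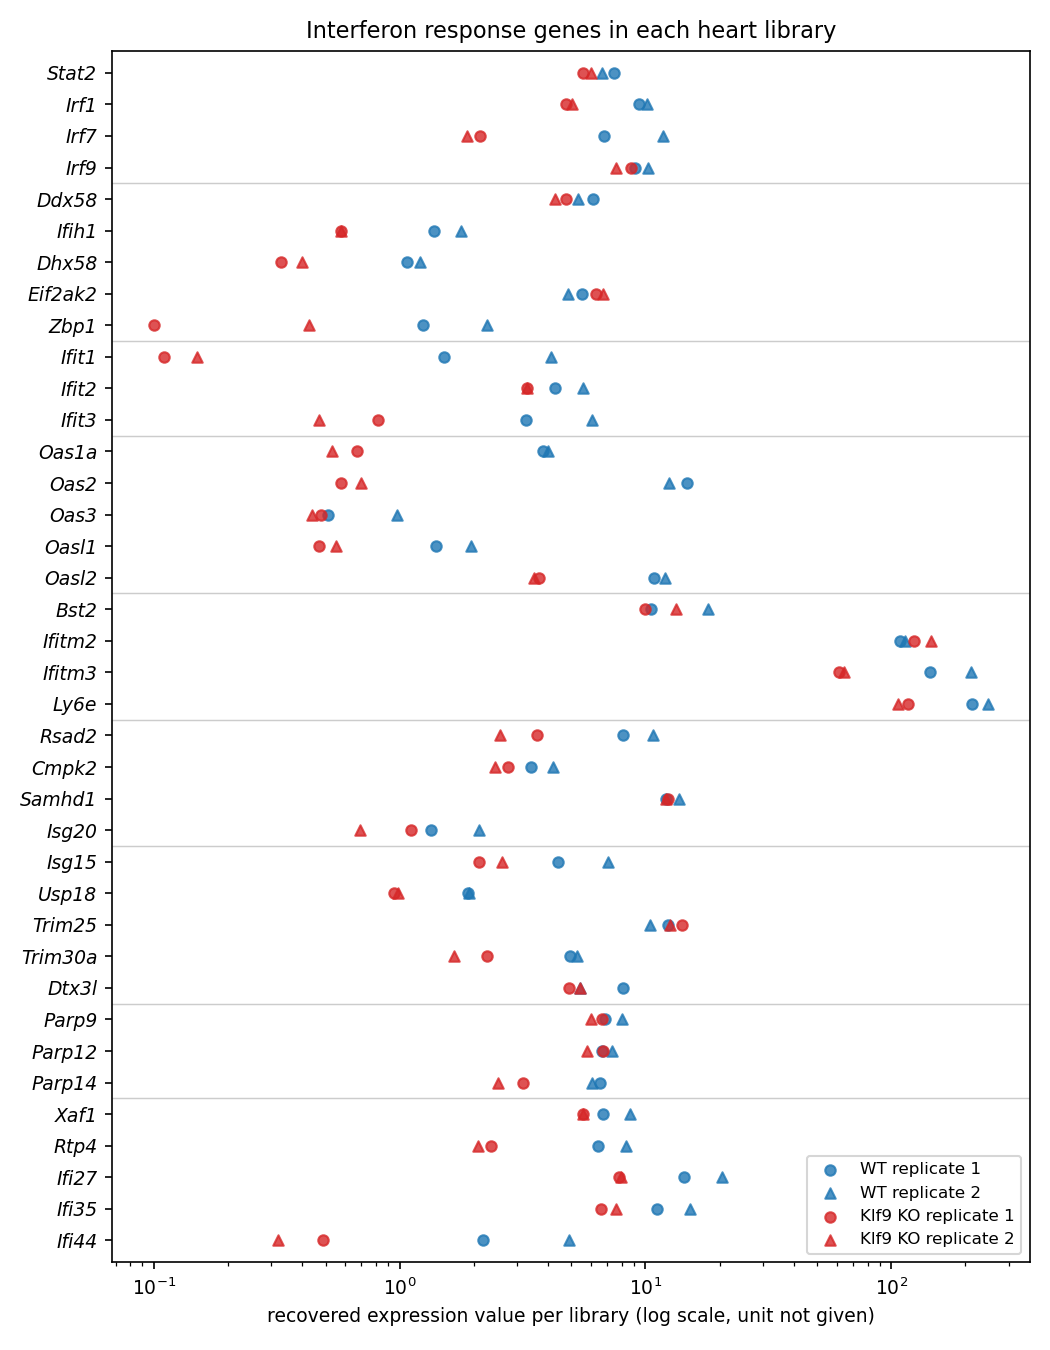
Recovered expression value of the 38 genes in each library on a log axis, with WT in blue, Klf9 KO in red, replicate 1 as circles and replicate 2 as triangles; grey lines separate groups of genes by role. Both red points lie left of both blue points in 32 rows.

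In bulk RNA, fewer cells of a type and less RNA per cell cannot be told apart. Macrophages are a cell type that expresses many interferon response genes, and their markers fell too. Of 11 tested markers 10 were lower (90.9%, beside 17.0% of all tested genes), 2 of them tested only through WT values. The number higher was 0, beside 27.7% of all tested genes. All 12 in the table had both Klf9 KO libraries below both WT libraries, as did 26.0% of all genes. The summed level of the 12 was 256 and 415 in WT and 78.0 and 76.3 in Klf9 KO. Such a sum follows mainly the genes of highest value, here Lyz2, C1qa, C1qb and C1qc. Lyz2 was at 71.9 and 169 against 14.8 and 15.4, and C1qa at 55.5 and 74.0 against 16.3 and 15.6. Neutrophil markers summed to 19.7 and 21.0 in WT and to 4.78 and 5.06 in Klf9 KO, with S100a9 at 10.4 and 12.02 against 0.68 and 1.31 and S100a8 at 3.57 and 4.04 against 0.28 and 0.18. Of the 5 tested, 3 fell (60%, beside 17.0% of all tested genes), 2 of them tested only through WT values. The 1 that rose (20%, beside 27.7%) was Cxcr2, at 1.47 and 1.16 against 2.31 and 2.43, a call lost after RLE scaling and without either knockout library. Csf3r, at 1.09 and 0.97 against 1.27 and 1.12, did not pass. Lymphocyte markers were near the bottom of the scale in every library, with sums over 12 genes of 2.25 and 2.0 against 4.77 and 3.53, the highest being Cd79a and Cd79b of B cells. Markers of endothelium and of fibroblasts went both ways: 1 of 8 (12.5%) and 1 of 7 (14.3%) fell and 3 rose in each (37.5% and 42.9%). These shares stand beside 17.0% lower and 27.7% higher of all tested genes. The 3 higher endothelial markers were 0 without either knockout library and the lower count was 2 after RLE or upper quartile scaling, while the lower fibroblast count was 0 without Klf9 KO replicate 2 and in the fit without a filter, and both lower counts were 2 without WT replicate 1. Ly6c1 was at 213 and 389 against 62.3 and 54.8 and Cdh5 at 103 and 97.0 against 177 and 185, while Dcn was at 221 and 429 against 145 and 131 and Col1a1 at 67.1 and 32.0 against 342 and 422. Of 8 dendritic markers 2 were tested and did not pass, with Zbtb46 at 5.52 to 7.08 and Clec9a at 1.44 to 2.59 over the libraries, and Siglech of plasmacytoid cells, which make much type I interferon, was at 0.06 to 0.12 throughout. The part of these cells in the interferon results was not tested.

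Of the 4 transcription factors among the genes, Irf7 and Irf1 fell, beside 17.0% of all tested genes. Irf7, which amplifies interferon production and is itself induced by interferon, was at 6.77 and 11.8 in WT and at 2.13 and 1.88 in Klf9 KO. The knockout libraries were close to each other and below both WT libraries, which differed from each other by more (log2 fold change -1.73 ± 0.24, SE, n = 2 per group; limma adjusted p = 0.000593). Irf1, a factor induced by interferon gamma as well, went from 9.41 and 10.2 to 4.74 and 5.03, with both groups tight (-0.87 ± 0.16; limma adjusted p = 0.00293). Stat2 and Irf9, parts of the complex that binds the response element, did not pass. Stat2 was at 7.42 and 6.66 against 5.59 and 5.98, and Irf9 at 9.07 and 10.2 against 8.74 and 7.59. Their log2 fold changes were -0.24 ± 0.17 and -0.22 ± 0.17 (limma adjusted p = 0.261 and 0.338), with both knockout libraries below both WT libraries in each gene.

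Among the sensors of RNA, 3 of 5 fell, beside 17.0% of all tested genes. Dhx58 (LGP2), which modulates the other helicases, was at 1.07 and 1.21 in WT and 0.33 and 0.40 in Klf9 KO (-0.65 ± 0.14). Ifih1 (MDA5), the sensor of long double-stranded RNA, was at 1.38 and 1.77 against 0.58 in both knockout libraries (-0.70 ± 0.15), and the groups were far apart relative to their spread. Zbp1, a sensor of left-handed nucleic acid that can start necroptosis, was at 1.24 and 2.27 against 0.10 and 0.43 (-1.11 ± 0.21), with replicates that differed in both groups. The limma adjusted p-values of the 3 ran up to 0.00626, and each reached the filter only through its WT values. Ddx58 (RIG-I), the sensor of short RNA with a triphosphate end, did not pass at 6.12 and 5.30 against 4.76 and 4.29 (-0.28 ± 0.17; limma adjusted p = 0.213). Eif2ak2, the kinase PKR that stops translation on binding double-stranded RNA, was slightly higher in both knockout libraries, at 6.28 and 6.71 against 5.53 and 4.83, and did not pass (0.28 ± 0.17; limma adjusted p = 0.205).

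The IFIT proteins bind viral RNA that lacks the marks of host messenger RNA. The mean of Ifit1 was 21.7-fold lower in the knockout: it was at 1.51 and 4.14 in WT and at 0.11 and 0.15 in Klf9 KO. In the authors' deposited table its log2 ratios over the 4 pairs of libraries ran from -5.23 to -3.33, while the fit on log2(value + 1), which damps low values, gave -1.67 ± 0.29 (limma adjusted p = 0.00179). Ifit3, another member of the family, went from 3.26 and 6.07 to 0.82 and 0.47 (-1.75 ± 0.25; limma adjusted p = 0.000655). In both genes WT replicate 2 was well above WT replicate 1, and the knockout libraries were below both. Both genes reached the filter only through their WT values and so had to differ. Ifit2, the nearest protein-coding neighbour of Ifit3 in the RefSeq gene order, was at 4.27 and 5.57 against 3.30 and 3.31 and did not pass (-0.45 ± 0.18; limma adjusted p = 0.0709). It passed after RLE or upper quartile scaling (limma adjusted p = 0.0308 and 0.0480) and without WT replicate 1 (-0.61; limma adjusted p = 0.00525), and its log2 fold change was -0.29 without WT replicate 2. Ifit3b, a near-identical copy of Ifit3, was at 1.38 and 2.96 against 0.01 and 0.12, and how reads were divided between such copies was not given.

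Of the 5 oligoadenylate synthetase genes 4 were tested and fell, beside 17.0% of all tested genes. But Oas1a, Oas2 and Oasl1 reached the filter only through their WT values and so had to differ. Enzymes of this family make the second messenger that activates the nuclease RNase L, though some members lack that activity. Oas2 had the lowest p-value of the 38 genes, at 14.7 and 12.5 in WT against 0.58 and 0.70 in Klf9 KO, a 21.2-fold lower mean and a log2 fold change of -3.15 ± 0.17 (limma adjusted p = 6.68e-06). Oas1a was at 3.83 and 4.0 against 0.67 and 0.53 (-1.62 ± 0.16; limma adjusted p = 0.000102). In both genes the replicates of a group were close, and in Oas2 WT replicate 1 was the higher one. Oasl2 went from 10.9 and 12 to 3.68 and 3.51, and Oasl1, its neighbour, from 1.41 and 1.96 to 0.47 and 0.55 (-1.43 ± 0.17 and -0.82 ± 0.16; limma adjusted p = 0.000233 and 0.00365). Oas3, which lies next to Oas2, was below 1 in every library, at 0.51 and 0.98 against 0.48 and 0.44, and was not tested with the filter.

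Of 4 genes whose proteins block viral entry or release, 2 fell, beside 17.0% of all tested genes. Ifitm3, which hinders fusion in endosomes, fell from 143 and 212 to 61.1 and 64.2 (-1.46 ± 0.23; limma adjusted p = 0.00123). Ifitm2, a close paralog of like function with 1 protein-coding gene between them, was at 108 and 114 in WT and 123 and 145 in Klf9 KO and did not pass (0.27 ± 0.20; limma adjusted p = 0.313). The difference between the neighbours was not tested, and reads shared by the copies cannot be placed. Ly6e, a membrane-anchored protein that restricts coronaviruses, went from 212 and 247 to 117 and 107 (-1.03 ± 0.21; limma adjusted p = 0.0040), and without Klf9 KO replicate 2 it did not pass (limma adjusted p = 0.0938). Bst2 (tetherin), which holds budding virus on the cell surface, overlapped between the groups, at 10.5 and 17.9 against 9.99 and 13.2 (-0.24 ± 0.26; limma adjusted p = 0.474). Its fold change was 0.12 without WT replicate 2 and -0.60 without WT replicate 1, where it passed (limma adjusted p = 0.0101).

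Of the effectors that act on nucleotides and RNA, Rsad2 alone passed. Rsad2 (viperin), which makes a chain-terminating nucleotide, was at 8.13 and 10.7 in WT and at 3.61 and 2.55 in Klf9 KO (-1.35 ± 0.20; limma adjusted p = 0.000927). Its direct neighbour Cmpk2, a mitochondrial nucleotide kinase that supplies the substrate of viperin, was at 3.43 and 4.21 against 2.76 and 2.45 (-0.42 ± 0.18; limma adjusted p = 0.0839). Cmpk2 lay in the same direction and passed after RLE scaling (limma adjusted p = 0.0381) and without WT replicate 1 (0.0143, limma adjusted p). Isg20, an RNA exonuclease, was at 1.34 and 2.11 against 1.11 and 0.69 (-0.51 ± 0.19; limma adjusted p = 0.0571). It passed after RLE or upper quartile scaling (limma adjusted p = 0.0369 and 0.0453), without WT replicate 1 (0.00473) and without Klf9 KO replicate 1 (0.0326). Samhd1, which depletes deoxynucleotides, was at 12.1 and 13.7 against 12.3 and 12.1, with overlapping groups and a log2 fold change of -0.07 ± 0.17 (limma adjusted p = 0.760), or 0.01 without WT replicate 2.

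In the ISG15 and ubiquitin system 3 of 5 genes fell, among them the modifier itself, beside 17.0% of all tested genes. Isg15, a ubiquitin-like protein joined to other proteins during the response, was at 4.40 and 7.04 in WT and 2.11 and 2.62 in Klf9 KO (-0.97 ± 0.22; limma adjusted p = 0.00709). Usp18, which removes Isg15 and damps receptor signalling, went from 1.89 and 1.91 to 0.95 and 0.99 (-0.56 ± 0.15; limma adjusted p = 0.0160). Its replicates were almost equal, and it reached the filter only through its WT values and so had to differ. Without Klf9 KO replicate 1 or 2 its log2 fold change was -0.54 ± 0.27 or -0.57 ± 0.27, and it did not pass (limma adjusted p = 0.117 and 0.107). Trim30a, a member of the tripartite motif family, fell from 4.92 and 5.29 to 2.26 and 1.66 (-1.05 ± 0.18; limma adjusted p = 0.00178). Trim25, the ligase that activates RIG-I, was at 12.3 and 10.5 against 14.1 and 12.6 and did not pass (0.21 ± 0.18; limma adjusted p = 0.367).

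Dtx3l, Parp9 and Parp14 stand side by side on chromosome 16, and 1 of the 3 fell, beside 17.0% of all tested genes. Parp14, an ADP-ribosyltransferase linked to macrophage activation, went from 6.52 and 6.07 to 3.17 and 2.51 (-0.93 ± 0.18; limma adjusted p = 0.00294), with both groups tight. Its neighbour Dtx3l, a ligase that works with Parp9, was at 8.11 and 5.43 against 4.89 and 5.40 (-0.32 ± 0.20; limma adjusted p = 0.232). It passed without WT replicate 2 (limma adjusted p = 0.00903). Parp9 was at 6.84 and 8.02 against 6.65 and 6.01 (-0.20 ± 0.17; limma adjusted p = 0.372). Parp12, a relative found on another chromosome, overlapped between groups at 6.64 and 7.34 against 6.71 and 5.8 (-0.14 ± 0.17; limma adjusted p = 0.531). The difference between Parp14 and its neighbours was not tested.

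Of the other induced genes, 4 of 5 fell, beside 17.0% of all tested genes. Rtp4, a receptor transporter induced by interferon, was at 6.39 and 8.34 in WT and 2.35 and 2.09 in Klf9 KO (-1.37 ± 0.18; limma adjusted p = 0.000532). Ifi44 was at 2.18 and 4.89 against 0.49 and 0.32 (-1.63 ± 0.26; limma adjusted p = 0.00133), with the WT libraries more than 2-fold apart and the knockout libraries below both. Ifi44 reached the filter only through its WT values and so had to differ. Ifi27 went from 14.4 and 20.6 to 7.82 and 7.97 (-1.03 ± 0.20; limma adjusted p = 0.00354). Ifi35 went from 11.1 and 15.1 to 6.58 and 7.62 (-0.79 ± 0.20; limma adjusted p = 0.0108), and without Klf9 KO replicate 1 it did not pass (limma adjusted p = 0.111). Xaf1, which promotes apoptosis, was at 6.71 and 8.66 against 5.57 and 5.58 (-0.39 ± 0.18; limma adjusted p = 0.106). It passed after RLE scaling (limma adjusted p = 0.0415) and without WT replicate 1 (0.00710, limma adjusted p).

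**Figure D3:**
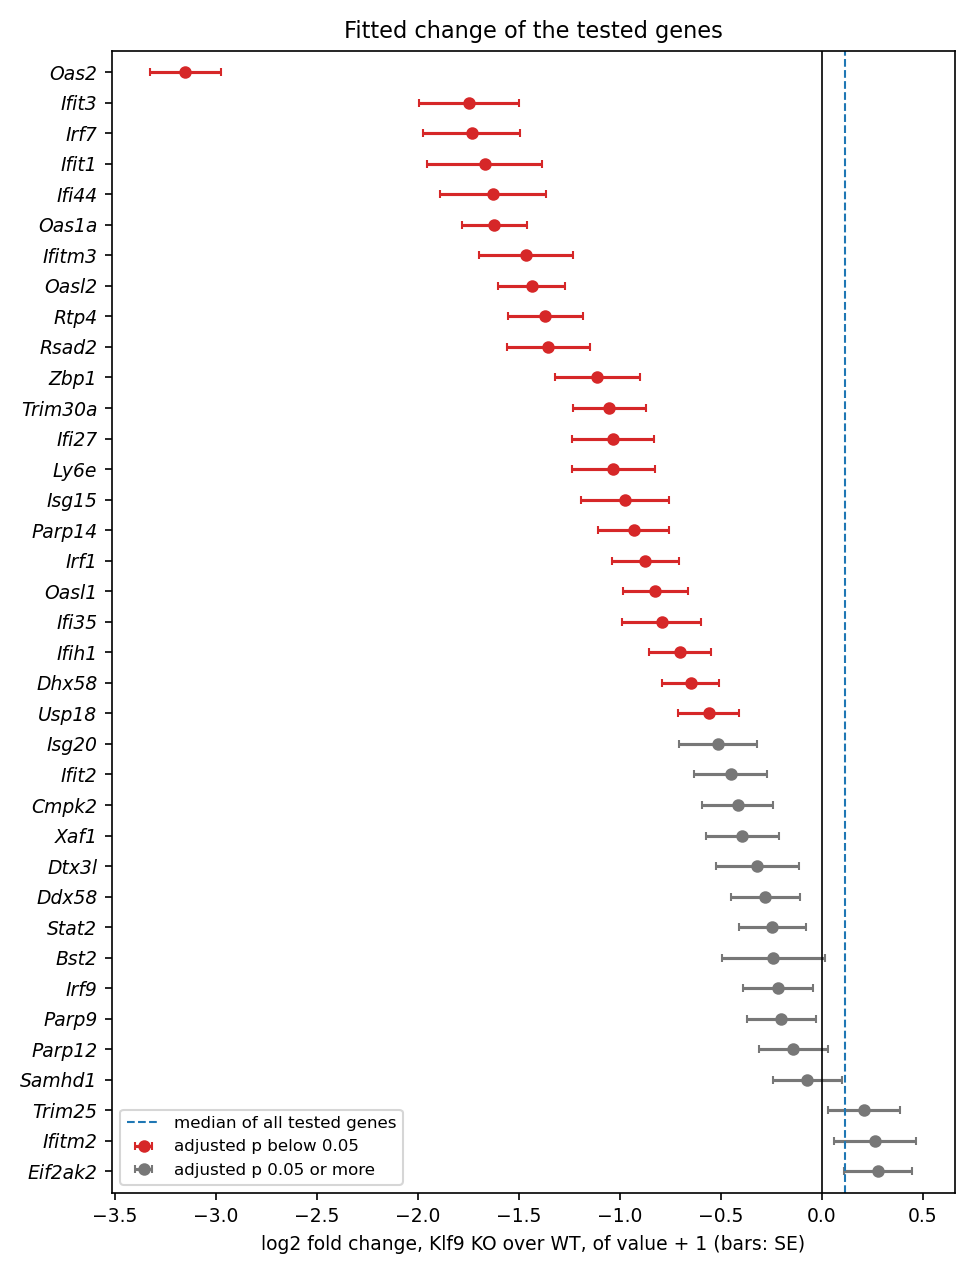
Fitted log2 fold change of Klf9 KO over WT with its SE for the 37 tested genes, in red where the adjusted p was below 0.05; the dashed line is the median of all tested genes, 0.12. Oas2 stands apart at -3.15, and the 3 genes with a positive fold change all missed the threshold.

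The WT libraries were less alike than the knockout libraries in these genes. WT replicate 2 was above WT replicate 1 in 31 of the 38 genes, or 81.6%, against 52.4% of all tested genes, and the median difference was 0.22 on the log2(value + 1) scale against 0.02. Klf9 KO replicate 2 was above replicate 1 in 18 of 38, or 47.4%, against 56.6% of all tested genes. The median difference was -0.01 against 0.03. The widest gaps in WT were in Ifit1 (log2 difference 1.03), Ifi44 (0.89), Ifit3 (0.73), Irf7 (0.72) and Bst2 (0.72). Macrophage markers were also higher in WT replicate 2, in 10 of 12, and their part in this difference was not tested. Oas2, Stat2, Ddx58, Eif2ak2, Trim25, Parp14 and Dtx3l went the other way. Without WT replicate 1, 27 of 37 genes fell, and without WT replicate 2, 23 did.

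**Figure D4:**
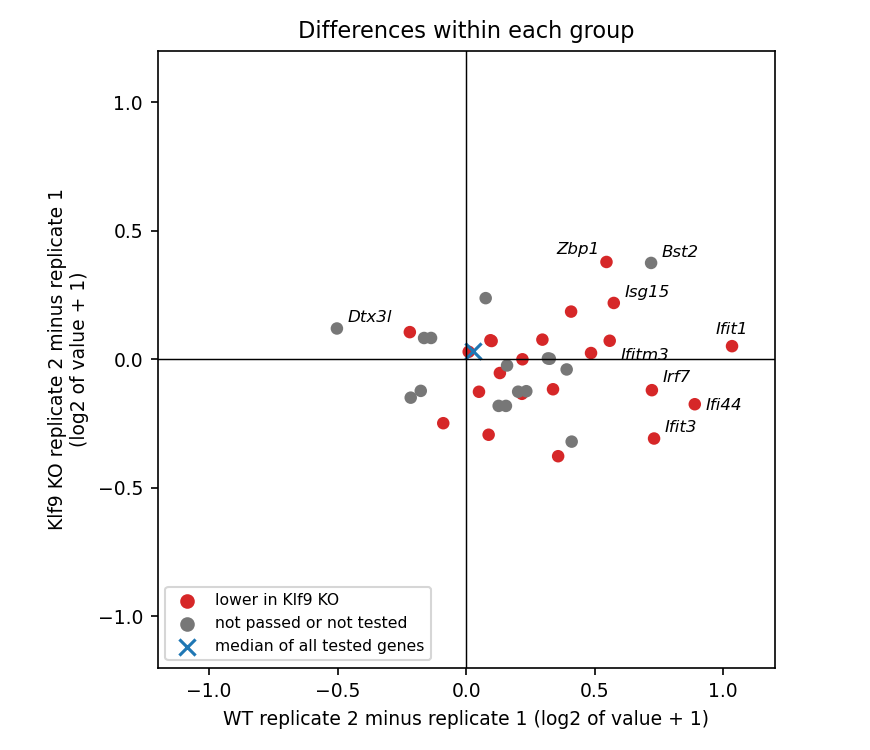
Difference between replicates 2 and 1 on the log2(value + 1) scale in WT (horizontal axis) and in Klf9 KO (vertical axis), 1 point per gene for the 38 genes. The points spread to the right, up to 1.03 for Ifit1, with 31 of 38 above 0 in WT and 18 of 38 above 0 in Klf9 KO.

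Genes that act before the response genes were taken as lists. Of the interferon ligands, 1 of 14 listed genes was in the table, Ifnz, at 0.01 in 3 libraries and 0.12 in Klf9 KO replicate 2. Among 11 receptors, kinases and STAT factors, 2 fell (18.2%, beside 17.0% of all tested genes), 1 rose (9.09%, beside 27.7%) and 8 did not pass. Ifngr1, a chain of the interferon gamma receptor, went from 28.7 and 38.5 to 14.3 and 14.9 (-1.14 ± 0.20; limma adjusted p = 0.00197). Ifnar1, the chain of the type I receptor, rose from 7.78 and 9.57 to 16.12 and 15.03 (0.78 ± 0.18; limma adjusted p = 0.00761). The lower count was 1 without either knockout library in turn, 5 and 4 without WT replicates 1 and 2, 4 after RLE or upper quartile scaling, and 1 without the filter; the higher count was 0 without either knockout library and 2 without either WT library.

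Other interferon regulatory factors and their binding proteins were mostly higher, with 4 of 6 tested genes up (66.7%) and 1 down (16.7%). The shares over all tested genes were 27.7% and 17.0%. Irf8, a factor of macrophage and dendritic cell development, rose from 2.13 and 2.24 to 6.01 and 7.70 (1.29 ± 0.18; limma adjusted p = 0.000627), and Irf2bp1, a corepressor of Irf2, from 8.95 and 6.93 to 14.7 and 18.1. Irf5 fell from 2.66 and 2.67 to 1.75 and 1.57. Higher genes numbered 2 without Klf9 KO replicate 1 and 1 without replicate 2, and the lower count was 0 without either, without the filter, with a minimum of 5 and with a pseudocount of 0.1 or none. Among 11 sensors and adaptors, 2 fell (18.2%) and 3 rose (27.3%), near the shares of 17.0% and 27.7% over all tested genes. Mavs, the mitochondrial adaptor through which the RNA helicases signal, went from 46.3 and 41.7 to 19.2 and 21.5 (-1.07 ± 0.18; limma adjusted p = 0.00164), and Tlr3, an endosomal RNA sensor, from 4.51 and 5.59 to 2.46 and 2.58. Ticam1, the adaptor of Tlr3, rose from 6.27 and 4.27 to 9.87 and 11.0, and Zcchc3, a cofactor of RNA and DNA sensing, from 2.52 and 3.33 to 9.53 and 11.7. The lower count was 1 without Klf9 KO replicate 1 or with a minimum of 5 and 4 without the filter, and the higher count 2 without replicate 2. Of 10 genes that restrain the response, 0 fell and 2 rose (20%), beside 17.0% lower and 27.7% higher of all tested genes. The 2 were Socs1 (0.69 and 0.56 against 1.69 and 1.66) and Rnaseh2a (8.5 and 7.45 against 10.9 and 13.1). After RLE scaling 1 was higher and 1 lower, and the counts also moved when some single libraries were left out.

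Interferon-stimulated genes outside the 38 fell in 18 of 39 tested cases (46.2%), 5 of them tested only through WT values, and rose in 4 (10.3%). Over all tested genes 17.0% fell and 27.7% rose. Ifi27l2a, a relative of Ifi27, went from 26.3 and 39.8 to 1.39 and 2.98 (-3.44 ± 0.28; limma adjusted p = 3.79e-05), and Slfn2, a schlafen protein of immune cells, from 4.32 and 5.53 to 1.33 and 1.16. Mov10, an RNA helicase, rose from 5.03 and 3.16 to 11.0 and 13.4, and Ogfr from 12.2 and 12.8 to 21.0 and 23.4. Lower and higher genes numbered 9 and 1 without Klf9 KO replicate 2, and 13 and 2 without replicate 1. Of the interferon-induced families left out of the 38, 15 of 17 guanylate-binding, p47 GTPase and Ifi200 genes fell (88.2%), 6 of them tested only through WT values. Of genes of class I antigen presentation 11 of 16 fell (68.8%), 1 of them tested in that way, and 0 rose in either list. Gbp6 went from 33.1 and 50.2 to 1.02 and 0.83, and Ifi205 from 14.8 and 33.9 to 0.07 and 0.01. H2-Q6, a class I chain with close paralogs, went from 4.86 and 7.43 to 0.32 and 0.01, and H2-K1, a classical chain, from 54.9 and 81.2 to 18.4 and 16.6. Without WT replicate 2, 1 and 2 genes of these lists were higher. Their list medians were -1.21 and -0.96, beside -0.79 for the 37 interferon response genes, and the difference between lists was not tested.

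**Figure D5:**
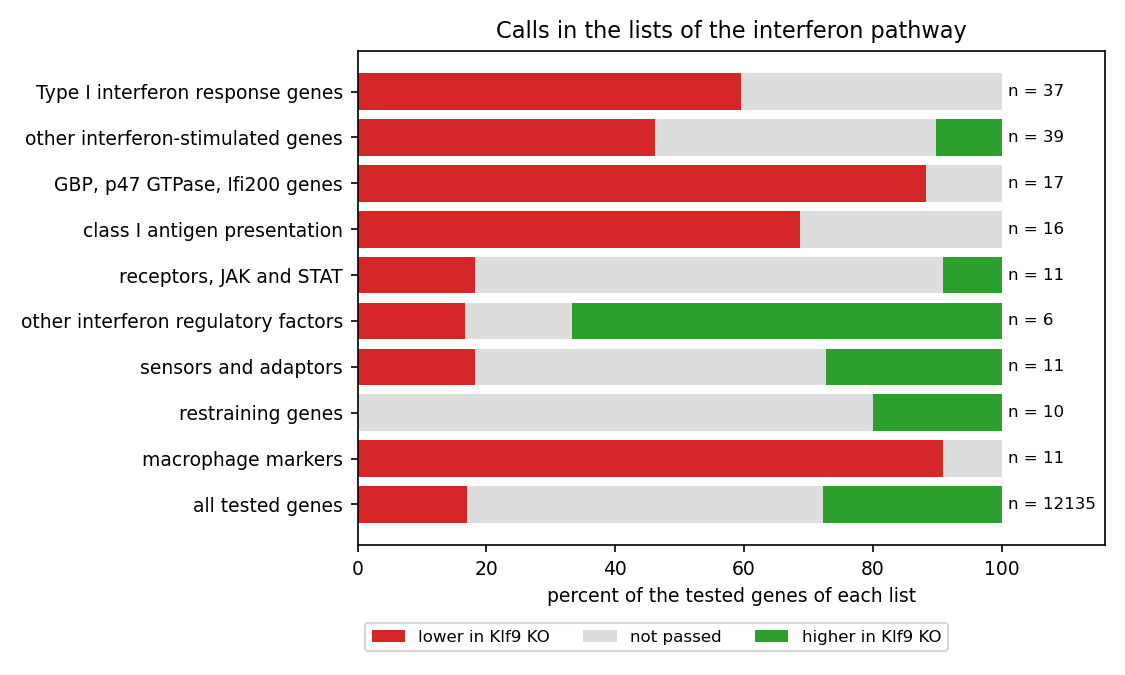
Percent of the tested genes of each list that were lower, did not pass or were higher in Klf9 KO (limma adjusted p below 0.05), with the number tested at the right; all tested genes are the bottom bar. Lower genes make up 59.5% of the interferon response genes and 17.0% of all tested genes, while lists of signalling and sensing genes have 18.2% or less.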

How the data were processed

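The authors deposited 1 table of comparisons, without counts or levels. Per the file headers it holds log2 ratios of knockout over wild type for 4 library pairs and for the groups, with Poisson p-values (not used) and a DEGseq q-value. Aligner, quantification, build and depth: not given in the sources used here. No counting interval can therefore be given.

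The pairwise ratios are additive to within 9.9e-14, and continued fractions gave the smallest 4 whole numbers per gene with these ratios. These were read as values in steps of 0.01, which is an assumption. A value of 0.01 can stand for 0, and a missing ratio was taken as a pair at 0.01. All 17485 genes were resolved. A factor common to a gene's values is lost, which is expected for 7.61% of genes and makes their level too low.

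limma 3.58.1 in R 4.3.3 (trend and robust) was fitted to log2(value + 1) of 12135 genes reaching 1 in 2 or more libraries, with group as the only term, no scaling, and Benjamini-Hochberg adjustment over all of them. Fold changes on this scale understate those of low genes. With 2 libraries against 2 an exact permutation test cannot go below p = 0.333. Python 3.11.15 and pandas 2.3.3 handled the tables. The fit was tested on simulated data.

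The genes and lists were chosen with earlier results of these data known. In each role the 2 passing genes of lowest p, all that did not pass and those not tested were to be given in full; the other passing genes were added for completeness. From a pathway list came up to 2 genes per direction by p, and from a marker list the 2 of highest mean. Ifnz, Siglech and Ifit3b were picked after their values were seen. The values of 1 gene that this rule takes are not reported here. Alternatives were scaling by RLE or by the upper quartile, no filter, a minimum of 5, a pseudocount of 0.1 or none, non-robust moderation, a replicate block, and leaving out each library, where the spread comes from the group that keeps its pair.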

Additional observations from a re-analysis of the deposited data

How the results depend on the processing

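Of the 12 alternatives, those that kept all 4 libraries gave 22 to 26 lower genes, except with a minimum value of 5. There 11 of the 23 genes left fell, or 47.8%, against 18.8% of all genes tested at that minimum. Of the 11, Irf7, Oas2, Oasl2, Rsad2, Parp14 and Rtp4 reached that minimum only through their WT values and so had to differ. In the main fit the shares were 59.5% and 17.0%, so the share that fell was smaller without the genes of low level. 19 of the 22 that fell did so under every alternative that tested them, the others being Ifi35, Ly6e and Usp18, and 0 rose under any. The 10 that passed the main filter only through WT values, and so had to differ, are among the 19 except for Usp18. Of these, only Oas2 was tested with a minimum of 5. The median log2 fold change was -0.39 with a minimum of 5, -1.04 with a pseudocount of 0.1 or none, and -0.89 after RLE scaling, which moved the median of all genes from 0.12 to -0.01 and the calls over all genes from 2061 lower and 3367 higher to 2597 and 2632. Leaving out each library in turn gave medians from -0.89 to -0.60, 1100 to 3261 lower and 1859 to 4327 higher genes over all genes, and log2 fold changes of -0.60 to 0.12 for Bst2 and -0.15 to 0.00763 for Samhd1. With the replicate number as a block 23 genes fell, Isg20 being added (limma adjusted p = 0.0173). The deviations of libraries with the same number correlated at -0.04, which shows no sign of pairing by number but cannot exclude it. The number of libraries limits the precision, and depth is unknown.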
